A study of Mus musculus with 4 samples.

Results

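Interferon-stimulated genes are described here as a list of 41 mouse genes, measured on 4 one-colour Agilent arrays, 1 array for each of 4 cultures of bone marrow-derived cells from BALB/C mice. A probe was taken as a member where the gene name column of the scanner tables equalled a listed symbol. All 41 symbols were found, on 61 probes, among 27827 gene names on the array. Where several probes read 1 gene, the brightest on average over the arrays stood for it, and the remaining probes of the 16 genes with several served as a check.

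The immature dendritic cells (imDCs) came from marrow mononuclear cells grown with IL-4 at 5 ng/mL and GM-CSF at 10 ng/mL; the loosely adherent clusters were taken on day 4 and selected on beads for CD11c. Mature dendritic cells (maDCs) were imDCs exposed for 4 to 5 further days to bacterial lipopolysaccharide (LPS) at 10 ng/mL. The sDCs were formed from lineage-depleted progenitors on Sca-1+CD117-Lin- mesenchymal stem cell (MSC) monolayers, with LPS given on day 4 and cells formed by day 9. For the neutralizing antibody-IL-10-treated sDCs, the coculture medium also received the antibody at 10 µg/mL every 2 days. The labels give neither an LPS dose nor GM-CSF or IL-4 for the cocultures, and no culture matched to the maDCs but without LPS was among the samples. The strain was shared by all 4 groups.

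Interferons are secreted proteins that act on cell surface receptors. Type I interferons, such as interferon beta, signal through the receptor chains IFNAR1 and IFNAR2 and the kinases JAK1 and TYK2 to a complex that contains STAT2 and IRF9 and binds interferon-stimulated response elements (ISREs); interferon gamma signals through its own receptor, JAK1 and JAK2, and its target genes carry gamma-activated sites (GAS). The genes switched on block steps of viral replication, attack the vacuoles of intracellular microbes, or feed back on the pathway. In dendritic cells, LPS is known to induce interferon beta through TLR4, the adaptor TRIF and IRF3, so that maturing cells turn on these genes in response to their own product. BALB/C mice are known to carry a defective Mx1 allele and a truncating Oas1b allele, so transcripts of these genes need not give working protein.

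The response elements themselves are shown first, since the list was not chosen by sequence. RefSeq promoter windows on the build GRCm38.p6, from 250 bases before to 50 bases after a start site, were matched by symbol for 30 of the 41 members (36 windows, as several genes have more than 1 start). The ISRE core was searched as GAAA, NN (any pair of bases) and GAAA in a row, and the GAS motif as TTCNNNGAA, on both strands. The 150 bases before the start are printed for 5 members, 5′ to 3′ in the direction of the gene. Capitals mark the ISRE core in the first 4, whichever strand it lies on, and the GAS motif in Irf1. Isg15 and Irgm1 are shown for their overlapping cores, Ifit1 for its separate cores, Rsad2 for a single core and Irf1 for a GAS motif without an ISRE core.

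Isg15 (chr4:156200819-156200968, minus strand): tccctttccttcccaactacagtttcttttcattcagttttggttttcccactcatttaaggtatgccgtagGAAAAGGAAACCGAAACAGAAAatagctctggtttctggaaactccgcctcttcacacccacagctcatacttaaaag

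Irgm1 (chr11:48871421-48871570, minus strand): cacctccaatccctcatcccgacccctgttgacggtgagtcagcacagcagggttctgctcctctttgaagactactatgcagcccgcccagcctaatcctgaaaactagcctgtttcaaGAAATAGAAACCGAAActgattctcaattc

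Ifit1 (chr19:34640739-34640888, plus strand): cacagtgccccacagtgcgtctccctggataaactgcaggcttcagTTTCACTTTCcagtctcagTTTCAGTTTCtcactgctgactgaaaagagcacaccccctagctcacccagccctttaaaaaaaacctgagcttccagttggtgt

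Rsad2 (chr12:26456453-26456602, minus strand): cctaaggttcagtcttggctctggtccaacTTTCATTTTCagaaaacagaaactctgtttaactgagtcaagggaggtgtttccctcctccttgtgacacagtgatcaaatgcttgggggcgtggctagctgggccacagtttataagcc

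Irf1 (chr11:53769864-53770013, plus strand): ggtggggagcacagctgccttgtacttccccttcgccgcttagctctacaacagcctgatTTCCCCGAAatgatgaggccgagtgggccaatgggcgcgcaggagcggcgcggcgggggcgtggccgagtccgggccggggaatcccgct

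An ISRE core was present in 16 of the 30 member genes with a window (53.3%), against 3.99% of the 27025 genes in the whole promoter table. A GAS motif was present in 10 of 30 (33.3%), against 9.55%. In all, 21 of the 30 members had at least 1 of the motifs, 5 had both, and 9 had neither. Isg15, which encodes the ubiquitin-like protein ISG15, held 3 overlapping cores, the first 78 bases before the start. Overlapping cores were also found in Oas1a, Oas1g, Bst2, Gbp3, Irgm1 and Trim21, so 7 members carried them. A match is a run of letters and was not tested for binding, and a window without one may have elements elsewhere.

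**Figure D1:**
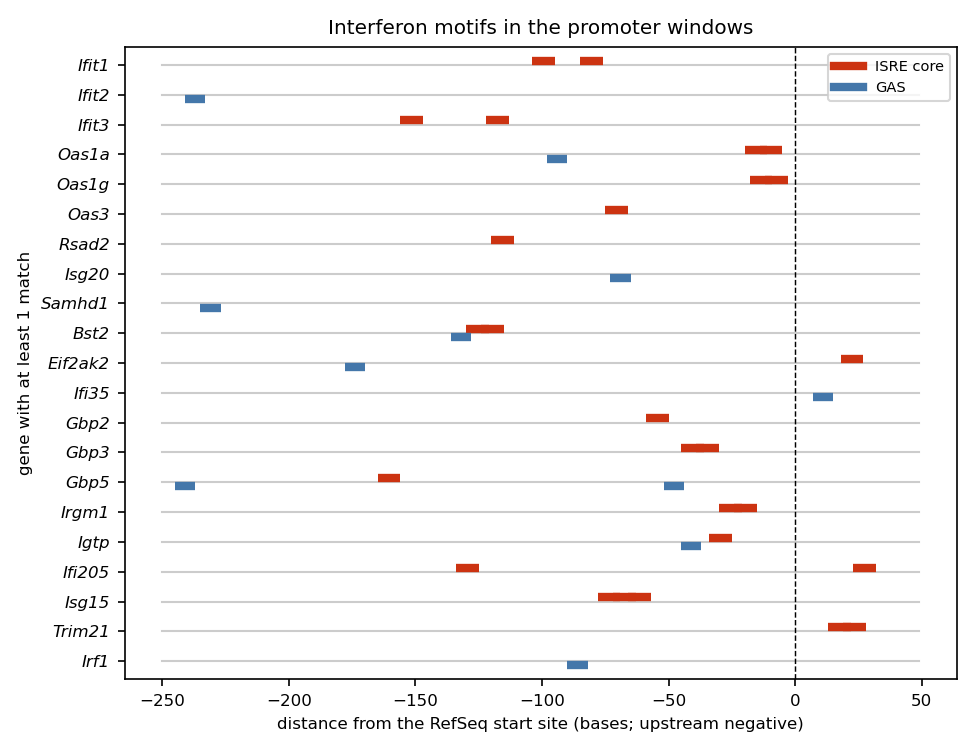
Positions of the ISRE core (red) and GAS motif (blue) relative to the RefSeq start site, in bases, in the windows of the 21 member genes with at least 1 match; the grey line is the window searched. The window holds more bases before the start than after it, and in Isg15 the cores run together from 78 bases upstream.

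Levels below are log2 of the background-subtracted intensity minus the array's own 75th percentile, so that 0 is the 75th percentile and each unit is a doubling; a level of 1 gene is never set against that of another, because probes differ. A difference is 1 array minus another, in log2 units. With 1 array per group there was no estimate of the spread between cultures, no test was possible, and differences were counted at a fixed 2-fold, a log2 difference of 1. The median SD between repeated spots of 1 probe was 0.0474 to 0.0591 log2 units, which covers spotting and scanning only. On the 4 arrays 61.2% to 69.7% of spots were well above background and 0 were saturated. Of the 41 members, all were well above background in maDCs, 40 in imDCs, 40 in sDCs and 39 in antibody-treated sDCs. The imDC array lay on another slide than the remaining 3, and in differences from imDCs the slide cannot be told apart from the culture.

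Markers of cell types differed between the same arrays. Sums of the intensities of a marker list, in multiples of each array's 75th percentile intensity, were 209, 335, 4.75 and 4.47 for 8 dendritic cell genes in imDCs, maDCs, sDCs and antibody-treated sDCs. The corresponding sums for 7 macrophage genes were 33.5, 132, 235 and 212. For 8 stromal genes they were 0.798, 2.65, 166 and 91.4. The dendritic cell genes were thus low on both sDC arrays, where Irf4 was not well above background, and stromal and macrophage genes were high there. Sums for 5 neutrophil genes were 836, 42.9, 72.7 and 91.2, those for 5 mast cell and basophil genes 7.80, 80.5, 0.210 and 0.248, and those for 5 T and NK cell genes 0.579, 12.2, 0.201 and 0.179. Of the neutrophil genes, only S100a8 was higher in sDCs than in maDCs, by 2.1. Mpo, Ltf, Ngp and Camp were lower there, at -4.09, -1.13, -1.77 and -1.82. Of the T and NK cell list, Ncr1 was not well above background on any array, while Gzmb reached its highest level, 3.58, on the maDC array. For 3 B cell genes the sums stayed between 0.0621 and 0.537. For 5 plasmacytoid dendritic cell genes they were 13.2, 58.8, 36.8 and 38.8. Of that list Bst2 is itself a member, and Siglech was well above background in imDCs alone. The list was split: for maDCs minus imDCs, Bst2 and Tcf4 were at 2.28 and 2.19, but Ly6d and Klk1 at -2.23 and -1.35. In extracts of a whole culture, fewer cells of a type and less RNA per cell cannot be told apart, and the part of these cell types in the results below was not tested.

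Nearly every member was most abundant in maDCs. The maDC array gave the highest level for 39 of 41 members, against 28.1% of the 20100 genes well above background on at least 1 array. Trim21 was highest in sDCs and Trim25 in antibody-treated sDCs. The order in which maDCs were highest, imDCs lowest and both sDC arrays between was found for 30 of 41 members, against 13.5% of genes. Some of these orders rest on small steps between sDCs and imDCs, such as 0.03 in Eif2ak2 and 0.12 in Oas1b, whose sign changed with the scaling. Others rest on the probe. In Oas3, Cmpk2, Ifi204, Irf1 and Irf9 another probe put sDCs below imDCs, by -0.29, -0.91, -0.82, -0.08 and -0.3. The sDC level lay nearer to that of imDCs than to that of maDCs in 33 members, and nearer to maDCs in 8 (19.5%); over all genes 61.4% lay nearer to maDCs. Among the 39 members well above background on all 4 arrays, a restriction chosen after seeing the data, maDCs were highest in 37, the order held in 29 and sDCs lay nearer to imDCs in 31. Over the 15607 genes of that kind the shares were 28.9%, 15.1% and 37.1%. Samhd1, counted as nearer to imDCs, differed between its probes. Oas1g, counted in the order and as nearer to imDCs over the 41, was well above background on the maDC array alone. The 8 nearer to maDCs were Oas2, Oasl2, Bst2, Rtp4, Iigp1, Ifi204, Trim21 and Trim25. Across these counts the same 4 arrays are used throughout.

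**Figure D2:**
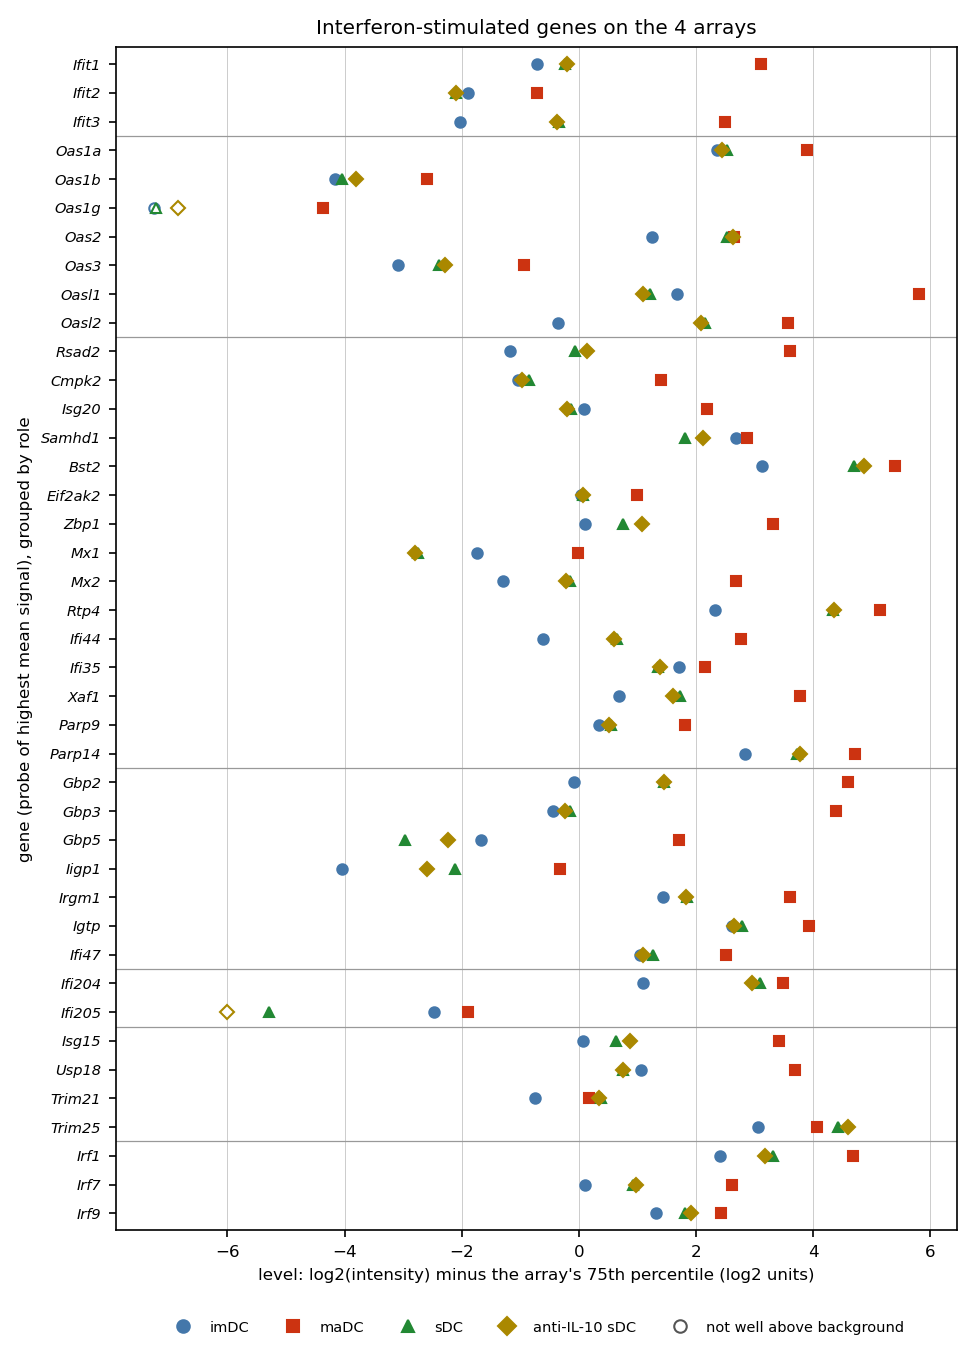
Level of each of the 41 interferon-stimulated genes on the imDC, maDC, sDC and antibody-treated sDC arrays, in log2 units relative to each array's 75th percentile, grouped by role; open symbols are not well above background, and each symbol is 1 array. The maDC square lies farthest to the right for 39 genes, and the triangles and diamonds of the sDC arrays overlie each other for most; levels of different genes are not comparable.

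The first comparison asked how maDCs differed from imDCs. The effects of LPS, of longer culture and of the slide are confounded here and cannot be told apart. Of the 41 members, 36 were at least 2-fold higher in maDCs and 0 were lower, against 22.2% higher and 10.1% lower (32.3% either way) of the 17243 genes with a value. Under quantile normalization, which moved the median gene from 0.24 to 0.06, the background became 17.5% and 12.3%, and 35 members were higher. The members' median was 2.28 against 0.22 over all genes, and their range was 0.20 to 4.83. Only the difference of Oas1g is a bound, since its probe was well above background on the maDC array alone. The 5 members within 2-fold were Samhd1, Ifi35, Eif2ak2, Ifi205 and Trim21.

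The second comparison set sDCs against imDCs, which differed in starting cells, stroma, cytokines, LPS and days of culture. Here 14 of 40 members with a value were at least 2-fold higher and 3 lower, against a background of 27.9% higher and 14.8% lower (42.7% either way) among 18819 genes (22.2% and 17.4% under quantile normalization). The share of members higher is near that of all genes and is no result about the list. The median was 0.53, against 0.30 over all genes. The 3 lower members were Mx1, Gbp5 and Ifi205.

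The third comparison set sDCs against maDCs, which both received LPS and whose arrays shared a slide, but which differed in starting cells, bead selection and stroma and, as far as the labels say, in cytokines; the LPS dose of the sDCs is not given. At the 2-fold threshold, sDCs were below maDCs in 31 of 41 members and above them in 0, against 16.1% lower and 15.4% higher (31.5% either way) among 18074 genes. The members' median was -1.67, against 0.06 over all genes, with a range of -4.68 to 0.37. The 10 members within 2-fold were Oas2, Bst2, Eif2ak2, Rtp4, Ifi35, Parp14, Ifi204, Trim21, Trim25 and Irf9. This comparison and the first share the maDC array, and the second shares an array with each, so the 3 sets of values are not independent of each other.

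**Figure D3:**
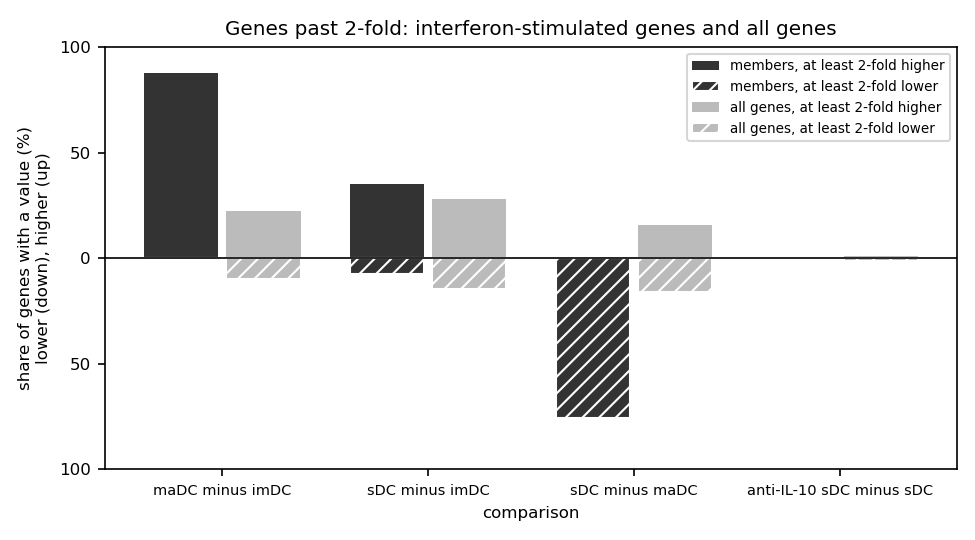
Share, in percent of genes with a value, of the interferon-stimulated genes (dark) and of all genes (grey) that were at least 2-fold higher (upward bars) or lower (downward, hatched bars) in each of the 4 comparisons. The dark bars show 36 of 41 members higher in maDCs than in imDCs and 31 of 41 lower in sDCs than in maDCs, while 0 of 40 passed 2-fold with the antibody.

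The IFIT proteins bind viral RNA and block its translation. Ifit1 (probe at mm9 chromosome 19, 34723796 to 34723855) had levels of -0.71 in imDCs, 3.10 in maDCs, -0.24 in sDCs and -0.21 in antibody-treated sDCs. The maDC array stood 14-fold above the imDC array and the sDC array 10.1-fold below the maDC array, whereas sDCs and imDCs lay within 2-fold. Ifit3, whose product partners IFIT1, had levels of -2.03, 2.49, -0.34 and -0.38 in the same order. Its sDC level was between the others, 3.22-fold above imDCs and 7.11-fold below maDCs. Ifit2 moved least in the family, at -1.90, -0.71, -2.10 and -2.09, with a second probe giving 1.82 for maDCs minus imDCs in place of 1.19.

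The oligoadenylate synthetases (OAS) sense double-stranded RNA and make the messenger that activates RNase L. Oasl1 encodes a relative without that activity, known to limit translation of Irf7. It had levels of 1.68 in imDCs, 5.80 in maDCs, 1.22 in sDCs and 1.09 with the antibody (chromosome 5, 115387556 to 115387615). The maDC array was the odd one, 17.4-fold above imDCs and 23.9-fold above sDCs. Its neighbour Oasl2, whose probe lies within a span of 25.4 kb, read -0.35, 3.56, 2.16 and 2.08. In sDCs Oasl2 was thus 5.73-fold above imDCs, while Oasl1 lay within 2-fold of them.

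Oas2 had the smallest gap between maDCs and sDCs in the family. Its levels were 1.24, 2.64, 2.53 and 2.63, so the 3 LPS-exposed arrays lay within 2-fold of each other and imDCs were lower; a second probe gave 1.05 for maDCs minus imDCs and -0.14 for sDCs minus maDCs. Oas3 read -3.08, -0.93, -2.39 and -2.29, a 4.44-fold difference between maDCs and imDCs. Oas1a, at 2.35, 3.90, 2.53 and 2.44, and Oas1b, at -4.17, -2.59, -4.05 and -3.80, were both more than 2-fold higher in maDCs than on the remaining arrays. For Oas1g, the bounds put maDCs 7.41-fold or more above imDCs and 3.19-fold or more above sDCs. These bounds depend on the background correction, as the probe is dim. With normexp they were 1.3 for maDCs minus imDCs and -0.66 for sDCs minus maDCs, in log2 units. Oas1a and Oas1g are near-identical copies, so their signals may be shared.

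Rsad2 encodes viperin, a radical enzyme that makes a chain-terminating nucleotide from CTP, and the adjacent Cmpk2 encodes a nucleotide kinase that helps supply it. Rsad2 (chromosome 12, 27127859 to 27127918) had levels of -1.17 in imDCs, 3.61 in maDCs, -0.07 in sDCs and 0.14 with the antibody. It had the largest maDC excess over imDCs of this group, 27.5-fold, and its other probes gave 4.86 and 5.09 in place of 4.78. Cmpk2 read -1.04, 1.40, -0.86 and -0.97, so that imDCs and both sDC arrays lay together and maDCs 5.44-fold above imDCs.

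Mx1 and Mx2 encode dynamin-like GTPases that act on viral nucleocapsids. Mx2 had levels of -1.30, 2.68, -0.15 and -0.22, and was 15.8-fold higher in maDCs than in imDCs. Mx1 read -1.74, -0.01, -2.74 and -2.79 and differed from Mx2 in sDCs, where it lay 2.01-fold below imDCs (-1.01, and -0.88 with normexp background correction; -1.18 on another probe) and Mx2 2.22-fold above. Of the sensors, Zbp1, which encodes a receptor for Z-form nucleic acid that can start cell death, read 0.10, 3.31, 0.75 and 1.07. Eif2ak2, which encodes the RNA-activated kinase PKR, moved little, at 0.04, 0.99, 0.07 and 0.07.

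Bst2 encodes tetherin, which holds budding virions on the cell. Its levels were 3.12, 5.39, 4.70 and 4.87, so that sDCs lay above imDCs by 1.59 log2 units and within 2-fold of maDCs. Rtp4, which encodes a negative regulator of the response, followed the same order at 2.33, 5.14, 4.33 and 4.36. Ifi44 (-0.61, 2.77, 0.65 and 0.60) and Xaf1 (0.68, 3.77, 1.73 and 1.61) were more than 2-fold lower in sDCs than in maDCs and more than 2-fold higher than in imDCs. For sDCs minus imDCs, Xaf1 was close to the threshold, at 1.05, and a second Ifi44 probe was under it, at 0.8. Isg20, an RNA exonuclease gene, read 0.09, 2.19, -0.14 and -0.21, with imDCs and sDCs together. Parp9 and Parp14, ADP-ribosyltransferase genes with probes within 139 kb on chromosome 16, were higher in maDCs than in imDCs by 1.47 and 1.88. Ifi35 was higher by 0.46.

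Samhd1 encodes a triphosphohydrolase that depletes nucleotides needed for reverse transcription, and its probes disagreed. The brighter probe (chromosome 2, 156930644 to 156931997, whose span of more than 1 kb for 60 bases crosses an intron) read 2.68, 2.87, 1.81 and 2.12, with sDCs lowest. The other probe (156925329 to 156925388) read -5.05, -2.95, -1.93 and -1.63, with imDCs lowest and sDCs above maDCs by 1.02. The direction of Samhd1 between sDCs and the other cultures therefore rests on the probe.

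The guanylate-binding proteins (GBPs) and the immunity-related GTPases (IRGs) attack vacuoles of intracellular microbes and are classic targets of interferon gamma. All 7 measured members were at least 2-fold higher in maDCs than in imDCs, with a median of 3.38, and all 7 were at least 2-fold lower in sDCs than in maDCs, with a median of -1.80, where 22.2% and 16.1% of all genes were. Gbp3 (chromosome 3, 142236072 to 142236131) had levels of -0.45, 4.38, -0.16 and -0.24, a maDC excess over imDCs of 28.5-fold, close to that of Rsad2. Its sDC and imDC levels lay within 2-fold. Gbp2 read -0.09, 4.59, 1.45 and 1.45, with sDCs between.

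Gbp5, which promotes inflammasome assembly, was 25.6-fold lower in sDCs than in maDCs, a gap close to those of Oasl1 and Gbp3; under normexp background correction it was the smallest of the 3 (-4.27 against -4.59 and -4.51). Its levels were -1.67 in imDCs, 1.71 in maDCs, -2.97 in sDCs and -2.23 with the antibody, so both sDC arrays were below imDCs. Gbp2, Gbp3 and Gbp5 were read by probes within 116 kb on chromosome 3, yet relative to imDCs sDCs were at 1.54, 0.29 and -1.30. Among the IRGs, Iigp1 (chromosome 18, 60552153 to 60552212) read -4.05, -0.32, -2.12 and -2.59 and was 3.79-fold higher in sDCs than in imDCs. Irgm1, which encodes a regulatory IRG protein, read 1.43, 3.61, 1.85 and 1.83. Igtp (2.62, 3.93, 2.79 and 2.64) differed less. Ifi47 was 1.45 higher in maDCs than in imDCs on the log2 scale, and in both genes the sDC and imDC levels lay close together.

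The p200 proteins Ifi204 and Ifi205 belong to a family of nucleic acid sensors and nuclear regulators. Ifi204 had levels of 1.09, 3.48, 3.09 and 2.95, with sDCs 4.03-fold above imDCs. An adjoining probe gave 2.37 for sDCs minus imDCs in place of 2.01, but the third, 6 to 7 kb away (chromosome 1, 175686019 to 175686078), gave -0.82. Ifi205 went the opposite way to Ifi204 in sDCs: it read -2.48, -1.90, -5.29 and -6.00, and in sDCs lay 7.01-fold below imDCs. The antibody array was not well above background for Ifi205. Its sDC level was near that array's lowest signal well above background, -6.04, so the size of this fold is uncertain. With normexp background correction the difference between sDCs and imDCs was smaller, but still past 2-fold and in the same direction. The family has closely related members; whether they share signal on these probes was not tested.

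Isg15 is joined to proteins in the manner of ubiquitin, and Usp18 removes it and also blocks IFNAR2 signalling. Isg15 (chromosome 4, 155573922 to 155573981) had levels of 0.07, 3.42, 0.64 and 0.87, and maDCs were 10.2-fold above imDCs. Usp18 read 1.06, 3.69, 0.75 and 0.76, with both sDC arrays slightly below imDCs and 7.68-fold below maDCs. The ubiquitin ligase genes differed from both. Trim21, an intracellular antibody receptor gene, read -0.75, 0.17, 0.37 and 0.34, and Trim25, which activates the RNA sensor RIG-I, 3.05, 4.06, 4.43 and 4.60. In these genes maDCs and sDCs lay within 2-fold of each other, and both were above imDCs; a second Trim25 probe placed maDCs above sDCs, at -0.53 for sDCs minus maDCs.

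On the chosen probes, the 3 transcription factor genes of the list had maDCs highest, imDCs lowest and both sDC arrays between. Irf7, the factor that amplifies interferon alpha production, had levels of 0.11, 2.62, 0.92 and 0.98. Irf1, an activator of many genes of the response, read 2.41, 4.67, 3.32 and 3.18, and Irf9, the DNA-binding subunit of the type I complex, 1.32, 2.43, 1.81 and 1.92. All 3 were more than 2-fold higher in maDCs than in imDCs (2.51, 2.25 and 1.12), and in sDCs they were within 2-fold of imDCs. A second Irf9 probe gave 0.79 for maDCs minus imDCs and -0.3 for sDCs minus imDCs. A second Irf1 probe gave 1.28 and -0.08. The order of sDCs and imDCs in Irf1 and Irf9 therefore rests on the probe, and Irf7 had no second probe.

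**Figure D4:**
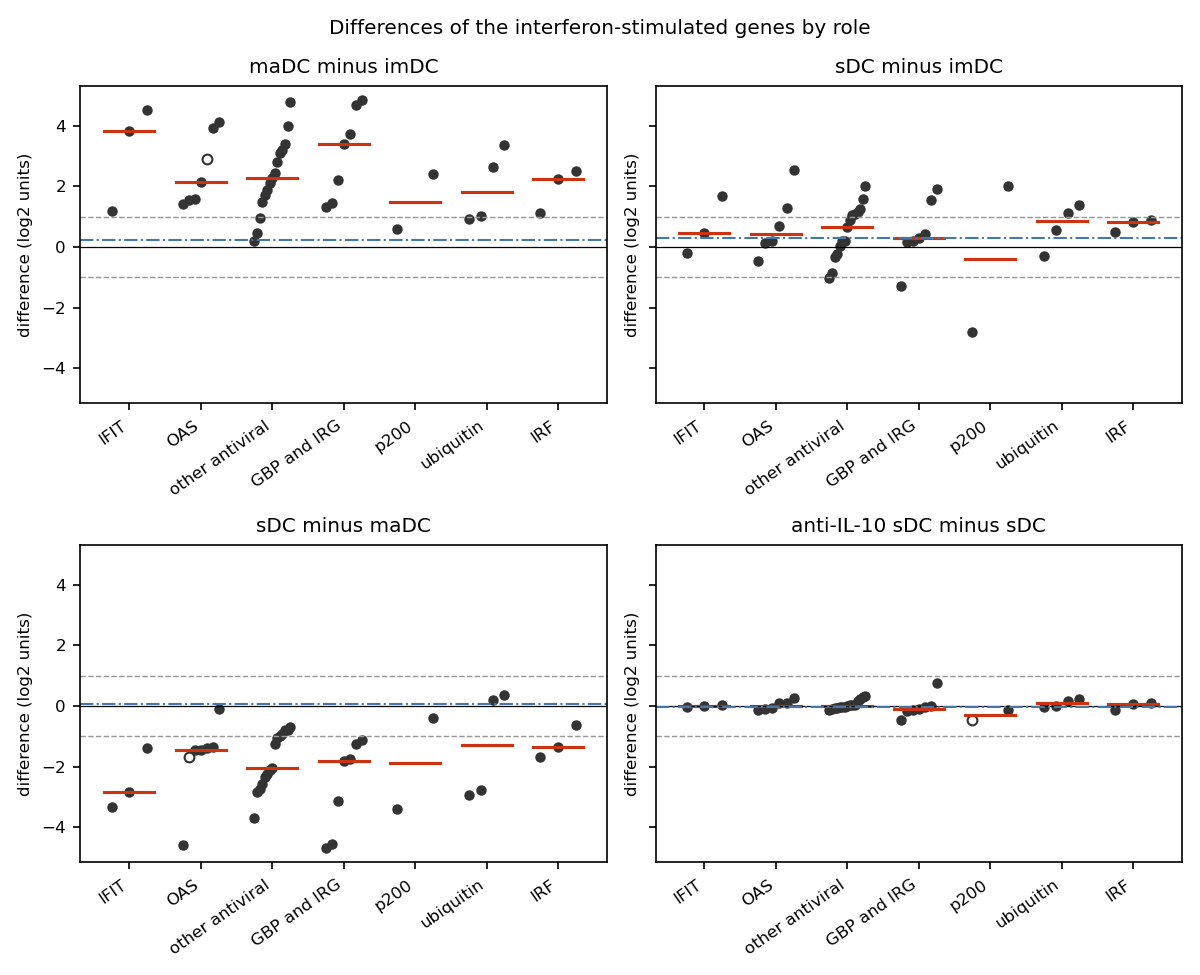
Difference of each interferon-stimulated gene, in log2 units, by role group in each of the 4 comparisons; filled points are measured on both arrays, open points are bounds, red lines are group medians, the blue dash-dotted line is the median of all genes and grey dashed lines mark 2-fold. Medians for maDCs minus imDCs run from 1.49 (p200) to 3.81 (IFIT), and in the antibody comparison all points lie between the dashed lines.

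By role, the medians for maDCs minus imDCs were 3.81 for IFIT, 2.15 for OAS, 2.28 for the remaining antiviral effectors and sensors, 3.38 for the GTPases, 1.82 for the ubiquitin group and 2.25 for the transcription factors. For sDCs minus maDCs they were -2.83, -1.46, -2.04, -1.80, -1.29 and -1.35. Members of a group differed: within OAS the second difference ran from -4.58 in Oasl1 to -0.11 in Oas2. Members with an ISRE core in the promoter window had a median of 2.58 for maDCs minus imDCs and -2.27 for sDCs minus maDCs (16 genes), and those without one 2.18 and -1.39 (14 genes). Both classes were mostly past 2-fold, with 13 of 16 and 12 of 14 higher in maDCs than in imDCs, against 22.2% of all genes.

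The antibody comparison asked what neutralizing IL-10 during formation of the sDCs changed. No member passed 2-fold: 0 of 40 with a value were higher and 0 lower, against 1.01% and 1.29% (2.31% either way) of 17937 genes. So low a background leaves little room for a count above 0 in a list of this size. The median was -0.02, the same as over all genes, and the members' differences had an SD of 0.19 against 0.29 over all genes measured on both arrays. The largest was in Gbp5, 0.74 or 1.67-fold higher with the antibody, followed by Iigp1 at -0.47 and Zbp1 at 0.32. Ifi205 fell to background with the antibody and has only a bound, -0.48. Stromal markers were 0.35 to 0.98 lower on the antibody array, and 3 of 5 neutrophil markers at least 2-fold higher.

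The other genes of the pathway come from lists drawn up by role. Among the ligands, Ifnb1, the interferon beta gene (chromosome 4, 88168023 to 88168082), had levels of -4.64 in imDCs and -1.18 in maDCs and was not well above background on either sDC array. It was 11.0-fold higher in maDCs than in imDCs and at least 29.0-fold higher than in sDCs. Ifng, the interferon gamma gene, read -6.21 in imDCs and 0.66 in maDCs, a 117-fold difference, and was likewise not well above background in sDCs. Its imDC level was near that array's lowest signal well above background, -7.28, so the size of this fold is uncertain. Interferon gamma is known mainly as a product of T and NK cells. Their marker sum was also highest on the maDC array, but it rests almost wholly on Gzmb, which was 4.67 higher in maDCs than in imDCs. Klrb1c was 3.1 higher in maDCs than in imDCs and not well above background on either sDC array. Cd3e and Cd3g were 0.86 and 0.67 higher in maDCs than in imDCs, and Cd3g was highest on the sDC arrays. Ncr1 was not well above background on any array. Which cells made the Ifng transcript was not tested. Of the interferon alpha genes, which are near-identical copies, Ifna2 was higher than in imDCs by 1.05 in maDCs and 1.48 in sDCs, Ifna12 by 0.75 and 0.83, and Ifna5 by 1.07 in sDCs. Ifna12 and Ifna5 were near the lowest signals well above background, so these sizes are uncertain. Ifna5 was not well above background in maDCs or with the antibody. The remaining interferon alpha genes with a value differed less from imDCs. Of 6 ligand genes with a value, 3 were at least 2-fold higher in maDCs than in imDCs and 0 lower, against 22.2% and 10.1% of all genes. Ifna4, Ifne and Ifnk were not well above background on any array.

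The receptor genes ran in another order than the members. Ifnar1 had levels of 1.60, 2.09, 3.20 and 3.08, and Ifnar2 2.86, 3.79, 4.89 and 4.86, so that both sDC arrays were highest; sDCs without the antibody lay 2.15-fold and 2.14-fold above maDCs. Ifngr1 read 4.88, 3.89, 5.35 and 5.17, lowest in maDCs, and Ifngr2 3.10, 4.03, 4.27 and 4.06. Of 6 receptor genes, 4 were at least 2-fold higher in sDCs than in maDCs and 1 lower, where 15.4% and 16.1% of all genes were. The lower gene was Il28ra, which encodes the interferon lambda receptor chain, at 0.09, -1.31, -4.11 and -2.90. It was the 1 pathway gene past 2-fold with the antibody, 2.32-fold higher, where 2.31% of all genes were past 2-fold either way. Over all the pathway lists, 1 such gene is near that share and is no result about them.

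**Figure D5:**
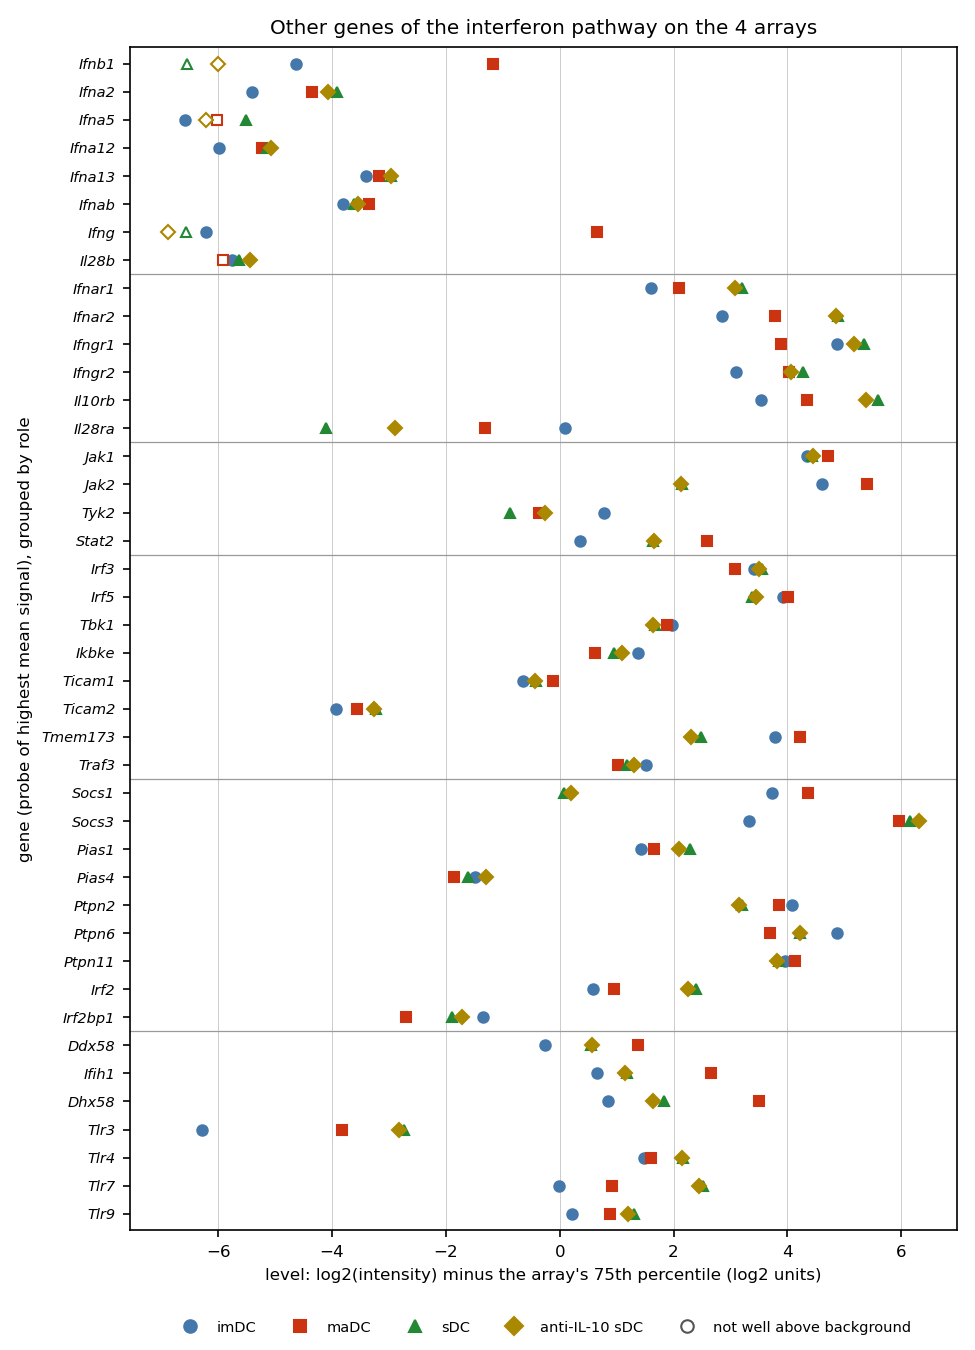
Level of the other interferon pathway genes that were well above background on at least 1 array, in log2 units relative to each array's 75th percentile, in the order ligands, receptors, kinases and STATs, induction of interferon, negative regulators, and RNA and DNA sensors; symbols are as in the plot of the 41 members. Ifnb1 and Ifng are far to the right in maDCs, the sDC symbols lie right of the maDC square for Ifnar1 and Ifnar2, and left of it for Jak2 and Socs1.

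Downstream of the receptors, Stat2, which is itself an interferon target, followed the members, with levels of 0.36, 2.59, 1.64 and 1.65. The kinase genes did not: Jak2 read 4.60, 5.40, 2.15 and 2.13, which put sDCs 9.54-fold below maDCs, while Jak1 was within 2-fold in every comparison. Tyk2 was at 0.77, -0.36, -0.87 and -0.25. From imDCs to maDCs, 1 of the 4 kinase and STAT genes described here was past 2-fold upward and 1 downward, and sDCs were below maDCs in 1 and above in 0. With so few genes these counts are near the shares of all genes, 22.2% upward and 10.1% downward, then 16.1% below and 15.4% above. Genes that induce interferon moved little between maDCs and imDCs, with 0 of 8 past 2-fold, among them Irf3 at -0.34 and Irf5 at 0.09. In sDCs, Tmem173, which encodes STING, was 1.74 below maDCs on the log2 scale.

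Among the feedback inhibitors, Socs1, which blocks JAK kinases after interferon, had levels of 3.73, 4.36, 0.07 and 0.19, and was 19.6-fold lower in sDCs than in maDCs. Socs3, a STAT3 target, read 3.33, 5.97, 6.15 and 6.32, lowest in imDCs. The LPS-exposed arrays also shared a slide and came from longer cultures, and these cannot be told apart from LPS here. Irf2, a repressor of ISRE genes, read 0.59, 0.96, 2.39 and 2.26, highest in sDCs. Among 9 negative regulators, maDCs were above imDCs past 2-fold in 1 and below in 2, and sDCs were above maDCs in 1 and below in 1, shares near or under those of all genes (32.3% and 31.5% either way). Of 7 sensor genes with a value, 4 were higher and 0 lower in the first of these comparisons, and 2 higher and 2 lower in the second, against 22.2% and 10.1%, then 15.4% and 16.1%, of all genes. Dhx58, which encodes the cytoplasmic RNA helicase LGP2, was higher in maDCs than in imDCs by 2.65 and at -1.67 in sDCs against maDCs. The endosomal receptor genes went the other way, Tlr3 and Tlr7 being higher in sDCs than in maDCs by 1.09 and 1.61.

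Many members sit side by side in the genome, and the probe positions on mm9 show which. The probes of Ifit1, Ifit2 and Ifit3 spanned 73.6 kb of chromosome 19, those of Oas1a, Oas1b, Oas1g, Oas2 and Oas3 168 kb of chromosome 5, and those of Rsad2 and Cmpk2 36.3 kb of chromosome 12. Neighbours did not always move alike. Mx1 and Mx2, 113 kb apart end to end on chromosome 16, lay on opposite sides of imDCs in sDCs, as did Ifi204 and Ifi205 over 277 kb of chromosome 1. No 2 member probes shared a run of more than 10 bases.

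The remaining probes mostly gave the same direction as those chosen. For maDCs minus imDCs, 19 of 19 other probes with a value had the same sign. For sDCs minus maDCs 17 of 19 did, with Samhd1 and Trim25 as exceptions. For sDCs minus imDCs, where many differences were small, 11 of 18 agreed in sign, and the median gap between probes was 0.59 log2 units.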

How the data were processed

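The authors deposited 1 Agilent Feature Extraction table per array, with a background-subtracted, detrended intensity for each spot (version 10.5.1.1 per the file headers, 9.1 per the submitters' processing notes) and probe positions on mm9. The authors also deposited a value table on a log2 scale, found by setting its columns against log2 intensity (correlation 0.9967 to 0.9995 across probes); no source used here names its normalization. RNA (0.5 µg) was amplified and labelled with Cy3, per the labels' protocols.

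Control spots and spots marked as outliers (76 to 148 per array) were left out, log2 intensity was scaled to each array's 75th percentile over 43379 spots, and spots of a probe were averaged. Agilent's mark for well above background had to hold for 50% or more of a probe's spots. Where 1 side was dim, its signal or the array's lowest signal well above background, whichever was higher, gave a bound; where both were dim, no value was given. Genes follow the array's own, partly old names; 27763 names had a probe usable on all arrays. Precision is limited by the number of arrays. The calculation was tested on simulated data, where it recovered the known changes. The rule for named genes allowed every member and gave levels for at least the 2 per role with the largest differences; of the pathway lists it allowed fixed core genes and up to 3 more each. One gene of the kinase and STAT list is not reported here. The members and lists were chosen with earlier results of these data known. Alternatives were normexp (offset 50, limma 3.58.1 in R 4.3.3), other scalings, the deposited values, other filters, probe medians and other folds. Python 3.11.15 was used otherwise. Promoter sequences are RefSeq's, from GRCm38.p6.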

Additional observations from a re-analysis of the deposited data

How the results depend on the processing

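No paired analysis was possible because each group has 1 array, and for the same reason no array could be left out. Counts of members past 2-fold stayed within 1.5 times, and list medians kept their sign and their side of 2-fold, under every alternative tried with these exceptions. With a 3-fold threshold, sDCs were above imDCs in 6 members and below them in 1. With a 1.5-fold threshold, 1 member, Gbp5, was higher with the antibody, and under normexp the median of that comparison was 0.02 in place of -0.02. The maDC array was highest for 38 members under quantile normalization and with the deposited values, and for 37 of the 39 well above background on all arrays. Of 1128 values of single members under an alternative, 0 reversed a difference past 2-fold, 10 dropped under 2-fold and 3 passed it. Sign changes of differences that were under 2-fold were not counted as reversals. Among the values that passed it, Samhd1 between sDCs and imDCs changed sign with the probe median, from -0.86 to 1.13. Trim25 between maDCs and imDCs dropped under 4 alternatives (0.84 to 0.99 in place of 1.01), and Samhd1 crossed in 3 comparisons with the probe median, which has only 2 probes to average. Oas1b and Oas1g between sDCs and maDCs dropped under normexp to -0.97 and -0.66, and both are dim. Oas1b, at 0.12 between sDCs and imDCs, ranged from -0.31 to 0.28 over the scalings. Low signal over background limits Oas1g, Ifi205, Ifnb1 and Ifng to bounds on some arrays.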
